A study of Mus musculus with 16 samples.

Results

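The proteins of the endoplasmic reticulum (ER) that fold secreted and membrane proteins are encoded by a group of genes that hepatocytes, which make most of the proteins of blood plasma, keep at high levels. When unfolded protein accumulates in the ER lumen, 3 membrane sensors, Ire1 (encoded by Ern1), Perk (Eif2ak3) and Atf6, start the unfolded protein response: Ire1 splices Xbp1 mRNA into the form that encodes an active transcription factor, cleaved Atf6 enters the nucleus, and Perk slows translation and raises Atf4. Spliced Xbp1 and Atf6 act largely through short elements in the promoters of chaperone genes, and the chaperones they raise include BiP, which in turn holds the sensors inactive. The mRNAs of 10 genes of this system were followed here, chosen by name: Hspa5, Hsp90b1, Calr, Canx, Pdia3, Pdia4, Pdia6, Dnajb9, Xbp1 and Sdf2l1. All 10 were among the 55450 genes quantified and all 10 passed the filter on low values, which left 11675 genes for testing.

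The mRNA of primary hepatocytes from wild-type mice was sequenced in 16 libraries. The cells were cultured overnight in medium with 5% serum and insulin, transferrin and selenium, and were left untreated, given 10 mM sodium itaconate, given a defined mixture of fatty acids and cholesterol at a 1:10 dilution (lipid), or given both, with 4 libraries in each group. Per the study's methods the mice used were C57BL/6J males of 8 to 12 weeks; all groups had the same genotype and medium. Each group held replicate letters A to D, and no label said whether a letter stood for an animal or a preparation, so p-values measure the spread between these libraries, which may be partly technical. Totals ran from 22346049 to 35512004 expected counts per library. In bulk RNA, fewer cells expressing a gene and less of its mRNA per cell cannot be told apart.

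The cell type label was checked against markers. All 9 hepatocyte markers examined passed the filter, with summed levels of 43143 to 58387 CPM (counts scaled to library size) in untreated and 37947 to 49668 CPM in lipid-treated libraries. Of 9 Kupffer cell and macrophage markers, 7 passed, with summed levels of 181 to 288 CPM in untreated and 231 to 327 CPM in lipid-treated libraries; Cd68 made up most of these and was higher with lipid (log2 fold change 0.43), while Cd5l, Adgre1 and Marco were lower (−0.81, −0.82 and −0.76) and Timd4 averaged 0.428 and 0.0944 CPM. Summed stellate cell markers were 26.7 to 30.2 and 23.2 to 26.7 CPM (2 of 8 passing, Lrat and Des near 0), and endothelial markers 14.5 to 23.5 and 15.4 to 25.7 CPM (6 of 7 passing). For bile duct cells 2 of 5 passed, at 599 to 1169 and 335 to 608 CPM, nearly all from Spp1 and Sox9, while Krt7 was at 0.00876 and 0 CPM and Krt19 and Epcam under 0.4 CPM. For B and plasma cells, which are rich in these chaperones, 2 of 7 passed, at 338 to 444 and 451 to 559 CPM, nearly all from Sdc1, while Jchain averaged 0.181 and 0.128 CPM. By their medians, the summed hepatocyte, stellate and bile duct markers were lower with lipid and the macrophage, endothelial and plasma cell markers higher, and the same held between itaconate and both agents. Gene by gene, 3 of the 7 macrophage markers tested were lower with lipid alone. In the presence of itaconate 6 of 7 were lower (median −0.77) and Cd68 was higher. Of the 9 hepatocyte markers 3 and 6 were lower in these comparisons and 1 was higher in each. Of all genes tested 23.7% and 23.5% were lower by the same test. The part of these markers in the results below was not tested.

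The 10 genes lie on 7 chromosomes and all are annotated as protein-coding (GENCODE M21, GRCm38). Hspa5 (ENSMUSG00000026864.13, chr2:34771970-34777547, plus strand) encodes BiP, the Hsp70 chaperone of the ER lumen. Hsp90b1 (chr10:86690209-86705509, minus) encodes Grp94, the Hsp90 of the ER. Calr (chr8:84841850-84846934, minus) and Canx (chr11:50293961-50325673, minus) encode calreticulin and calnexin, the lectins that hold freshly glycosylated proteins, and Pdia3 (chr2:121413775-121438687, plus) encodes the disulfide isomerase that works with them. Pdia4 (chr6:47796141-47813430, minus) and Pdia6 (chr12:17266545-17284770, plus) encode other disulfide isomerases. Dnajb9 (chr12:44205559-44210326, minus) and Sdf2l1 (chr16:17130138-17132383, minus) encode partners of BiP, and Xbp1 (chr11:5520659-5525893, plus) encodes the transcription factor whose mRNA Ire1 splices. Expected counts are per gene, so spliced and unspliced Xbp1 mRNA were counted together. Of the counts of the 10 genes only 1 was not a whole number; a fraction arises where a read is shared among genes.

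The promoters of the 10 genes are shown first, because several carry the same element. The ER stress response element (ERSE), to which NF-Y and Atf6 or Xbp1 bind, was searched on both strands as CCAAT and CCACG with any 9 bases between them, in the RefSeq windows of 250 bases before to 50 bases after each start (GRCm38.p6). It was present in 0.119% of all 32851 windows, belonging to 37 genes, and in those of 5 of the 10 genes: Hspa5, Hsp90b1 (at 2 places), Calr, Canx and Pdia6. Printed 5′ to 3′ along each gene, with the element in capitals, and reading in reverse in Calr and in the second place of Hsp90b1, the stretches are:
Hspa5, chr2:34772020-34772048, plus strand: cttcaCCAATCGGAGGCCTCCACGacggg
Hsp90b1, chr10:86705513-86705676, minus strand: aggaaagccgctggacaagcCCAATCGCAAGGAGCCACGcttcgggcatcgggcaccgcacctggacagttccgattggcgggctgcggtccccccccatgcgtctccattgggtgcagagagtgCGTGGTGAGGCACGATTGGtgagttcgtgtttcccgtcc
Calr, chr8:84847055-84847113, minus strand: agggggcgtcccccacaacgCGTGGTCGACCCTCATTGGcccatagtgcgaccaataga
Canx, chr11:50325780-50325838, minus strand: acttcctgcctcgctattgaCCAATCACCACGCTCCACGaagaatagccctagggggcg
Pdia6, chr12:17266471-17266529, plus strand: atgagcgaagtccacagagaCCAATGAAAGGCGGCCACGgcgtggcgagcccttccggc

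The first base of the element lay 65 bases before the RefSeq start in Hspa5, 98 in Pdia6, 145 in Canx, 162 in Calr, and 212 and 107 in Hsp90b1. GENCODE starts the Hspa5 gene upstream of RefSeq, at 34771970. The Hspa5 element thus lies before the RefSeq start but inside the gene as GENCODE places it, and a short stretch is printed there. No exact match was found in the windows of Pdia3, Pdia4, Dnajb9, Xbp1 and Sdf2l1, which says only that these letters are not in those windows. A second element, ERSE-II (ATTGG and CCACG with any 1 base between them), was in 0.0365% of windows, and the Xbp1 site TGACGTGG (UPRE) in 0.676%; neither was in a window of the 10 genes. ERSE and ERSE-II are built from the same boxes in another spacing and orientation, and the other strand of UPRE holds the CCACG box. A match is a description of the sequence and not evidence that a factor was bound. Such elements act in promoters of chaperone genes, so the share of the 10 genes with ERSE is no test of enrichment.

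To compare levels between genes, CPM were divided by the length of each gene's merged exons. In untreated hepatocytes Hspa5 stood at 468 ± 117 CPM per kb (SD, n = 4), the 109th highest of the genes tested. It was followed by Hsp90b1 at 211 ± 57.1, Calr at 209 ± 24.0, Pdia3 at 184 ± 27.2 and Canx at 118 ± 11.4 CPM per kb. Pdia4 (86.7 ± 21.2), Pdia6 (84.0 ± 15.2), Dnajb9 (64.4 ± 8.41) and Xbp1 (64.4 ± 8.14) came next, and Sdf2l1, at 34.9 ± 10.1 CPM per kb, was the lowest of the 10. The libraries of Hspa5 lay above all those of Hsp90b1, those of Pdia3 above those of Canx, and those of Xbp1 above those of Sdf2l1. The other neighbours in this order overlapped, and Hsp90b1 exceeded Calr, Pdia4 exceeded Pdia6, and Dnajb9 exceeded Xbp1 in 2 of 4 letters each.

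**Figure D1:**
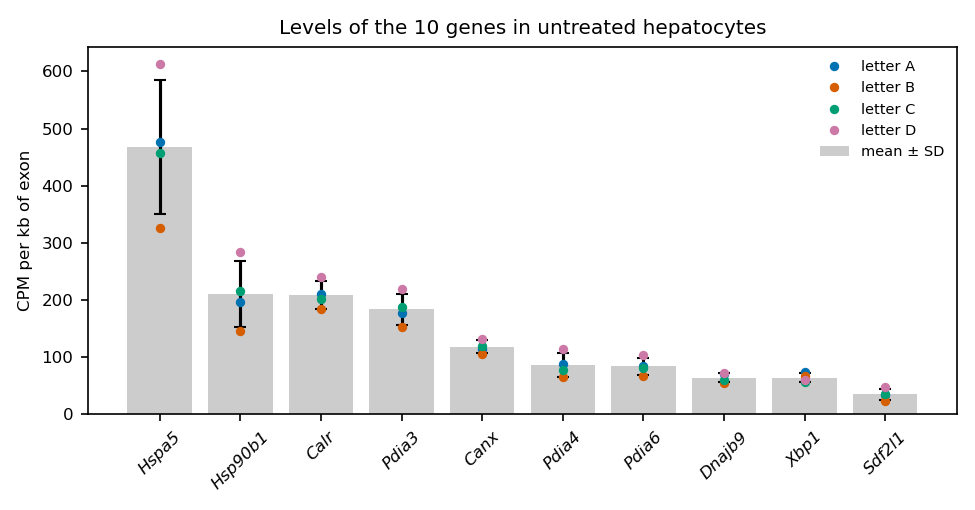
Levels in untreated hepatocytes, in CPM per kb of exon (linear axis), for the 10 genes in order of their mean. Bars are means with SD over 4 libraries and points are single libraries coloured by replicate letter; Hspa5 stands apart at 468 CPM per kb, and neighbours from Canx to Xbp1 overlap.

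Libraries of the same letter moved together. The Hspa5 level averaged over treatments differed by 0.80 on the log2 scale between its highest letter (D) and its lowest (B), and the same letters were highest and lowest for Hsp90b1, Canx, Pdia3, Pdia4, Pdia6 and Sdf2l1, with differences of 0.24 (Canx) to 1.06 (Sdf2l1). Calr and Dnajb9 were highest in D and lowest in C. Xbp1 followed another order, highest in A and lowest in C, with a difference of 0.40. For Hspa5 the spread between letters thus exceeded its difference between treatments, and the letter was a term of the model throughout.

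With lipid, 9 of the 10 mRNAs fell and none rose. Sdf2l1 fell the most, by 56.6%, Hsp90b1 and Calr by 34.7% and 33.0%, Pdia6 by 27.4%, and Pdia3, Hspa5, Dnajb9, Pdia4 and Canx by 18.0% to 22.3%. Xbp1, at −0.07 on the log2 scale, did not pass. Across all genes tested 47.5% were called in this comparison and 23.7% were called lower (edgeR's quasi-likelihood test, Benjamini-Hochberg adjusted p under 0.05). The 10 genes had a median of −0.36 on the log2 scale, against 0.00 over all genes and −0.31 over the genes called lower. The 10 mRNAs together took 0.541% of the reads in untreated and 0.428% in lipid-treated libraries.

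**Figure D2:**
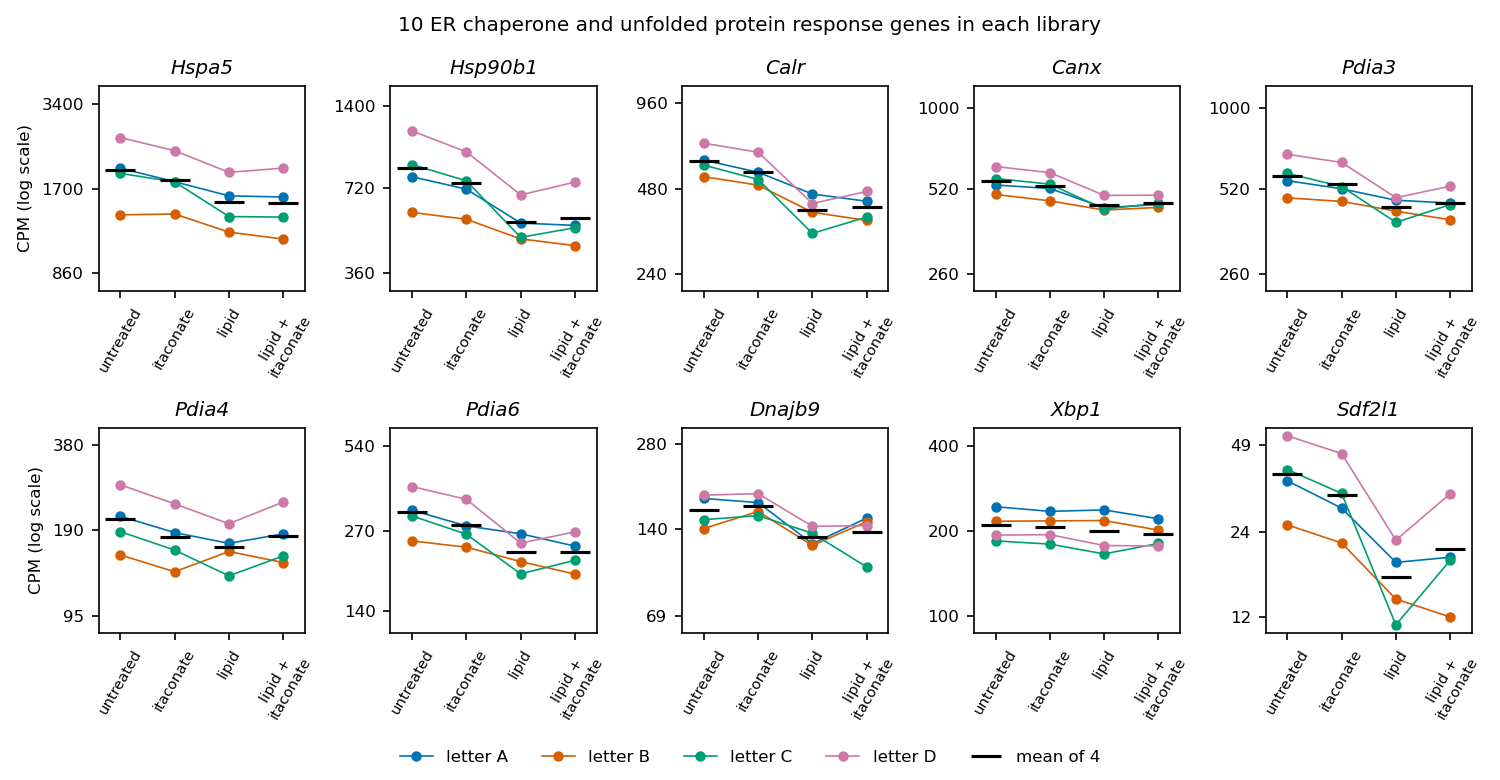
CPM of the 10 genes in each of the 16 libraries, on log axes that span the same fold range in every panel. Points are libraries, lines join libraries of one replicate letter and black bars are group means; lines fall from untreated to lipid in all letters for 8 of the 10 genes, and Xbp1 is nearly flat.

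Hspa5 was at 2018, 1380, 1934 and 2589 CPM in untreated libraries A to D and at 1611, 1199, 1361 and 1950 CPM in the lipid-treated ones. It was lower with lipid within every letter, although the groups overlapped because letter B was low and letter D high in both. Its log2 fold change was −0.36 ± 0.05 (SE; adjusted p = 4.85e-05, edgeR). For Hsp90b1 the untreated libraries held 790, 591, 872 and 1146 CPM and the lipid-treated ones 542, 476, 482 and 681 CPM, again lower in every letter with overlapping groups (−0.61 ± 0.07, adjusted p = 3.47e-06, edgeR).

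The lectin chaperones and their isomerase fell together. Calr was at 605, 529, 581 and 694 CPM in untreated and at 459, 396, 333 and 425 CPM in lipid-treated hepatocytes, groups that did not overlap (−0.58 ± 0.06, adjusted p = 2.36e-06, edgeR). Canx was at 496 to 623 CPM untreated and 437 to 492 CPM with lipid, also without overlap, and fell by 0.29 ± 0.04 on the log2 scale. Pdia3 was at 482 to 688 and 395 to 483 CPM and fell by 0.36 ± 0.06. Calr, Canx and Sdf2l1 were the 3 of the 10 whose groups did not overlap, and 15.9% of all genes tested were lower without overlap.

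Among the other isomerases, Pdia6 was at 249 to 387 CPM untreated and 190 to 263 CPM with lipid, and was lower in every letter (−0.46 ± 0.07). Pdia4 was at 213, 156, 188 and 275 CPM untreated and at 171, 160, 131 and 201 CPM with lipid. It was lower in letters A, C and D and not in letter B, with a log2 fold change of −0.31 ± 0.07 (adjusted p = 0.00203, edgeR). It was −0.42 when the lipid-treated library B was left out.

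Sdf2l1, the least abundant of the 10, was at 36.5, 25.5, 40 and 52.6 CPM in untreated libraries and at 18.8, 13.9, 11.3 and 22.5 CPM in lipid-treated ones. Every lipid-treated library lay below every untreated one, with a log2 fold change of −1.20 ± 0.12 (adjusted p = 2.04e-06, edgeR). The difference within a letter was largest in C (−1.82) and smallest in B (−0.87). Dnajb9, the other BiP partner, was at 141 to 185 CPM untreated and 123 to 143 CPM with lipid and fell by 0.31 ± 0.09 (adjusted p = 0.00782, edgeR). Xbp1 itself was at 243, 216, 184 and 193 CPM untreated and at 237, 217, 166 and 177 CPM with lipid. Its 95% interval was −0.16 to 0.01 on the log2 scale, and those of the other 9 genes all lay below 0.

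Over all 10 genes, 8 were lower with lipid in all 4 letters, as were 29.4% of all genes tested. In a model without the letter 7 of the 10 passed, beside 2030 of all 11675 genes called lower and 4149 called in either direction, and the calls of Hspa5 (adjusted p = 0.170) and Pdia4 (adjusted p = 0.200) were lost, with log2 fold changes of −0.37 and −0.33.

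**Figure D3:**
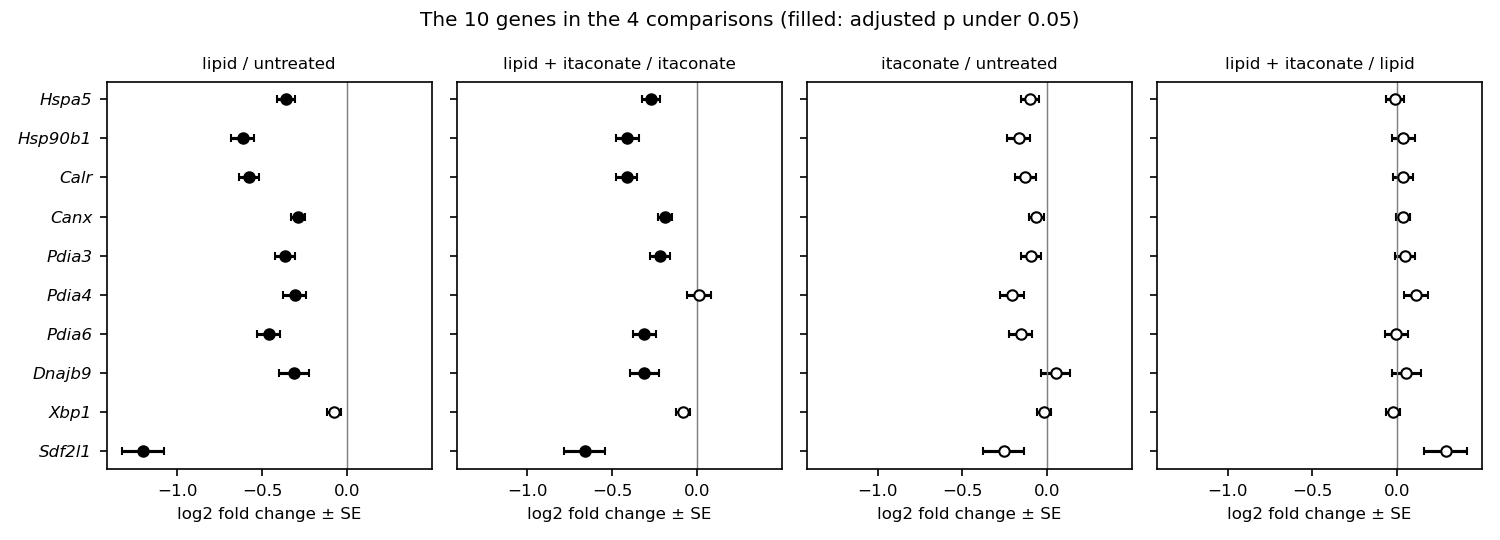
Log2 fold changes (edgeR, bars are SE) of the 10 genes in the 4 comparisons, one panel each; filled points have an adjusted p under 0.05. In the panels for lipid 9 and 8 points are filled and lie below 0, and in the panels for itaconate none is filled.

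In the presence of itaconate, lipid lowered 8 of the 10 mRNAs, against 23.5% of all genes tested called lower and 47% called in either direction; 6 of 7 macrophage and 6 of 9 hepatocyte markers were lower in the same comparison. The median of the 10 genes was −0.29 and that of all genes 0.00. Sdf2l1 was at 29.2, 22, 32.9 and 45.6 CPM with itaconate and at 19.6, 12.0, 19.1 and 32.8 CPM with both (−0.66 ± 0.12, adjusted p = 0.000452, edgeR), groups that overlapped through letter D. Calr and Hsp90b1 each fell by 0.41 (SE 0.06 and 0.07), and Calr and Dnajb9 were the 2 whose groups did not overlap, against 14.8% of all genes tested. Hspa5 was at 1807, 1389, 1804 and 2325 CPM with itaconate and at 1595, 1133, 1355 and 2019 CPM with both, and fell by 0.27 ± 0.05. Pdia6 and Dnajb9 fell by 0.31, Pdia3 by 0.22 and Canx by 0.19. Xbp1 was again not called (−0.08 ± 0.04, adjusted p = 0.123, edgeR), but was at −0.11 and was called when the lipid + itaconate library C was left out (adjusted p = 0.0294, edgeR). Pdia4 was at 187, 136, 162 and 236 CPM with itaconate and at 185, 146, 154 and 239 CPM with both, a log2 fold change of 0.01 ± 0.07 with a 95% interval of −0.14 to 0.16. Without the letter in the model, 2 of the 10 passed (Calr and Dnajb9), beside 1883 of all 11675 genes called lower, and adjusted p-values of the 6 calls lost were 0.0581 (Canx) to 0.340 (Hspa5).

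Itaconate alone, which was compared with the same untreated libraries as lipid, changed none of the 10 mRNAs by edgeR's test, and 4.91% of all genes tested were called. DESeq2 and limma-trend likewise called 0. Without adjustment 5 of the 10 had a p under 0.05 (Pdia4, Hsp90b1, Pdia6, Sdf2l1 and Calr), all lower, against 11.6% of all genes tested. The fitted values were below 0 for 9 of the 10 genes, against 50.5% of all genes, and lower in all 4 letters for 7, against 19% of all genes, with a median of −0.12. The largest were Sdf2l1 at −0.26 ± 0.12 and Pdia4 at −0.21 ± 0.07 (adjusted p = 0.0993, edgeR). Hspa5 was at 1804 to 2325 CPM in letters A, C and D and 1389 CPM in letter B, a log2 fold change of −0.10 ± 0.05 with a 95% interval of −0.21 to 0.01. Dnajb9 alone was above 0, at 0.05 ± 0.09. In the main model 344 of the 11675 genes tested were called lower. When only the 8 libraries of the comparison entered the model, 5 of the 10 and 913 of all genes were (1859 called in either direction). With no filter, where more genes were tested, 3 of the 10 and 549 of all genes were called lower (1091 in either direction). In both settings the share called lower was larger among the 10 than among all genes, although more genes were called than in the main model. The 10 mRNAs varied together (r with Hspa5 of 0.71 for Pdia4 to 0.98 for Hsp90b1), so these counts are not of independent genes.

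With lipid present, itaconate also changed none of the 10 by edgeR, DESeq2 or limma-trend, and 2.58% of all genes tested were called. The fitted values ran from −0.03 (Xbp1) to 0.29 (Sdf2l1), with a median of 0.04, and 1 of the 10, Sdf2l1, had an unadjusted p under 0.05 (adjusted p = 0.262, edgeR; background 8.54% of genes higher at an unadjusted p under 0.05). Sdf2l1 was higher with itaconate in letters A, C and D and lower in letter B. The 95% intervals of Hspa5, −0.12 to 0.10, and Canx, −0.05 to 0.12, give the range of changes that these libraries leave possible. The 10 mRNAs took 0.423% of the reads with both agents and 0.428% with lipid alone.

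Whether the 2 lipid effects differed was tested as an interaction, for which 1 gene of those tested (0.00857%) was called and none of the 10 by edgeR, DESeq2 or limma-trend. At an unadjusted p under 0.05 there were 3 of the 10, each less lowered by lipid in the presence of itaconate, against 4.62% of all genes in that direction. They were Sdf2l1, whose effects of −1.20 and −0.66 differed by 0.54 (95% interval 0.17 to 0.91, adjusted p = 0.376, edgeR), Pdia4, with −0.31 and 0.01 (0.32, interval 0.11 to 0.53, adjusted p = 0.357, edgeR), and Hsp90b1, with −0.61 and −0.41 (0.20, adjusted p = 0.576, edgeR). For Pdia4 the lack of a call depended on the filter and on 1 library. With no filter Pdia4 (0.31, adjusted p = 0.00612, edgeR) and Sdf2l1 (0.53, adjusted p = 0.000227, edgeR) were called, beside 231 of all genes. Without the lipid-treated library B the difference for Pdia4 was larger, at 0.43, and was called (adjusted p = 0.0445, edgeR). Without that library Pdia4 was also called higher for itaconate with lipid, at 0.22, and lower for itaconate alone, at −0.21. Dnajb9 and Xbp1 differed by 0.00 and −0.01, with intervals of −0.26 to 0.26 and −0.13 to 0.12.

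The rest of the pathway was examined in 7 lists of 97 genes, of which 96 were tested. With lipid 37 were lower and 15 higher, a median of −0.09, where 23.7% of all genes tested were lower and 47.5% were called. The balance depended on the scaling, for these lists as for all genes. With library totals in place of TMM factors 24 of the 96 were lower and 22 higher. Their median was −0.01, against 0.08 over all genes. Over all genes 1782 were then lower and 3870 higher, against 2767 and 2779 with TMM factors. Of the 10 genes above, 9 were still lower with library totals. The 21 other folding factors tested had 12 lower and 1 higher: Hyou1, the exchange factor of BiP, fell by 0.60 ± 0.07 on the log2 scale, Dnajc10 by 0.58 ± 0.05, the secreted stress proteins Manf and Creld2 by 0.51 and 0.40, and the prolyl hydroxylase subunit P4hb, Dnajb11 and Dnajc3 by 0.30, 0.30 and 0.20. The call of Dnajc3 was lost in 6 of 24 alternatives, among them library totals (adjusted p = 0.178, edgeR) and the model without the letter, in which Dnajb11 (adjusted p = 0.0873) and Creld2 (adjusted p = 0.315) were lost too. The one higher was Fkbp11, a prolyl isomerase, at 0.30. Of 18 genes for ER-associated degradation 10 were lower and 3 higher, with Derl3 at −1.44 ± 0.22, Herpud1 at −0.69 ± 0.09, Edem1 at −0.49 and the ubiquitin ligase Syvn1 at −0.44, but Derl2, a relative of Derl3, at 0.53 and Edem2 at 0.40. Derl3 was low throughout, at 2.03 to 5.49 CPM untreated and 0.488 to 2.47 CPM with lipid, or 13 to 69 counts in a lipid-treated library.

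Of 7 sensor and stress transducer genes 1 was lower and 3 were higher with lipid. Over all 11675 genes tested 2767 were lower and 2779 higher, or 1782 and 3870 with library totals. Eif2ak3 fell by 0.82 ± 0.05, from 108 ± 5.92 to 61.6 ± 6.60 CPM (SD, n = 4), while Ern1 rose by 0.37 ± 0.04, from 93.6 ± 2.97 to 121 ± 4.22 CPM, and Creb3l3, a liver transcription factor of the Atf6 kind that acts on lipid metabolism, rose by 1.06 ± 0.04, from 103 ± 8.43 to 215 ± 21.6 CPM. Atf6 was at −0.12 ± 0.05 (adjusted p = 0.0747, edgeR). Of 8 genes of the integrated stress response 0 were lower and 4 higher: Chac1 by 0.74, Asns by 0.52, Trib3 by 0.39 and Sesn2 by 0.20. Atf4 itself, at 0.01 ± 0.05, and Ddit3, which encodes Chop, at 0.07 ± 0.09, did not pass. Against 23.7% of all genes lower, the translocon list had 5 of 17 lower and 2 higher, N-glycosylation 3 of 10 lower, with Ostc at −0.45 and Rpn2 at −0.28, and export to the Golgi 6 of 15 lower and 2 higher, with Sec31a at −0.31 and Lman1 at −0.29.

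**Figure D4:**
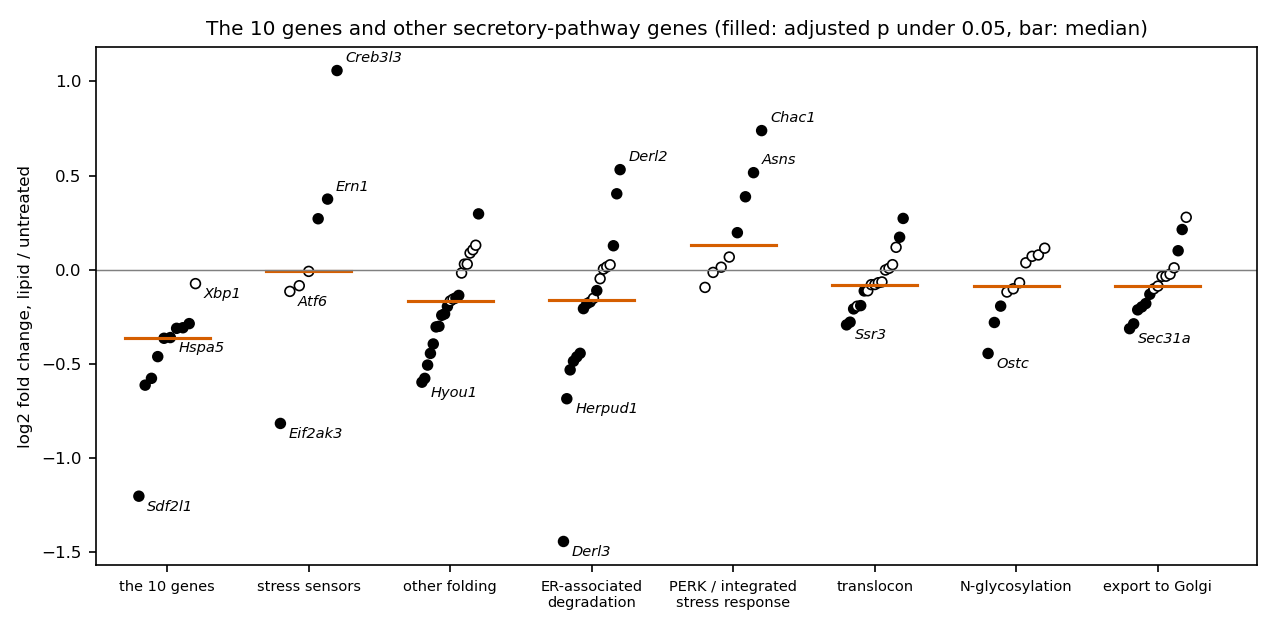
Log2 fold changes with lipid (lipid-treated over untreated, edgeR) of the 10 genes and of the 96 other genes tested in 7 lists, each point a gene, filled where the adjusted p is under 0.05, with bars at the list medians. The 10 genes have the lowest median, −0.36, and the integrated stress response list the highest, 0.13.

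With itaconate present, lipid lowered 38 and raised 18 of the 96, against 23.5% of all genes lower and 47% called. With library totals it was 25 lower and 21 higher of the 96. Over all genes 1992 were then lower and 3378 higher, against 2743 and 2740 with TMM factors. Derl3 (−0.88), Herpud1 (−0.58), Dnajc10 (−0.46), Edem1 (−0.44), Manf (−0.42), Hyou1 (−0.39), P4hb (−0.29), Syvn1 (−0.23) and Dnajb11 (−0.23) fell, the last 2 not passing with library totals (adjusted p = 0.109 and 0.0766, edgeR). Creld2 and Dnajc3, at −0.16 and −0.15, did not pass. Eif2ak3 fell by 0.78 and Atf6 by 0.30, and Creb3l3 rose by 0.95 and Ern1 by 0.17. In the integrated stress response list 2 were lower, among them Atf3 at −0.46, and 3 were higher, among them Asns at 0.31 and Trib3 at 0.23, while Atf4 (−0.11) and Ddit3 (−0.20) did not pass. The largest in the remaining lists were Kdelr2 (−0.32) and Sec24a (−0.27) in export, Ostc (−0.34) and Tusc3 (0.27) in glycosylation, and Sec61b (−0.27) and Srprb (0.26) in the translocon. Without the letter in the model 33 of the 96 were called rather than 56.

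Itaconate alone lowered 4 of the 96 and raised 2, against 4.91% of all genes tested called. Creb3l3 fell by 0.29 ± 0.04, Creld2 by 0.29 ± 0.07 and the oligosaccharyltransferase genes Krtcap2 and Stt3a by 0.22 and 0.17, and the sensors Atf6 and Ern1 rose by 0.24 ± 0.05 and 0.20. None of the 6 was called in the model without the letter, and the calls of Creld2, Krtcap2 and Stt3a were lost in 7, 7 and 8 of 24 alternatives. With lipid present 2 of the 96 were called, against 2.58% of all genes: Creb3l3 was lower by 0.40 ± 0.04, and Asns was at −0.37 ± 0.09, a call close to the threshold (adjusted p = 0.0429, edgeR) that was lost in 17 of 24 alternatives. Neither was called without the letter. No gene of the 96 passed for the interaction, and 10 had an unadjusted p under 0.05, a rule met by 8.6% of all genes.

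Genes with an exact ERSE match were also described as a set, which the sequence defined and not the counts. The search was added after the counts had been analysed. Of the 37 genes, 16 were tested, and with lipid 14 were lower and 1 higher, with a median of −0.39, against 23.7% lower and a median of 0.00 over all genes. The 5 of them described above apart, 9 of 11 were lower, with a median of −0.38, and they included Derl3, Creld2, Syvn1, Dnajc3 and Ero1lb of the pathway lists, whose levels are thus counted in both descriptions. Of the 9 tested genes with ERSE-II, 4 were lower, among them Herpud1 and Dnajb11, and 2 higher, with a median of −0.02. Of 95 with UPRE 28 were lower and 22 higher, with a median of −0.03. Sdf2l1, without an exact ERSE match, had a larger fall than the 5 of the 10 genes with one. Derl3, with the largest fall of these, and Creld2, which shares its element with a neighbour, had the element in reverse:
Derl3, chr10:75893222-75893280, plus strand: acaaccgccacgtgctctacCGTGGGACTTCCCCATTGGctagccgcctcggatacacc
Creld2, chr15:88819500-88819558, plus strand: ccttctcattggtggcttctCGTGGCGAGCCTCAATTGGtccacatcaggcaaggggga
The element of Creld2 (88819520 to 88819538) is also that of Alg12, a mannosyltransferase gene that starts on the other strand 202 bases away from it, and with lipid Creld2 was at −0.40 and Alg12 at 0.51.

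**Figure D5:**
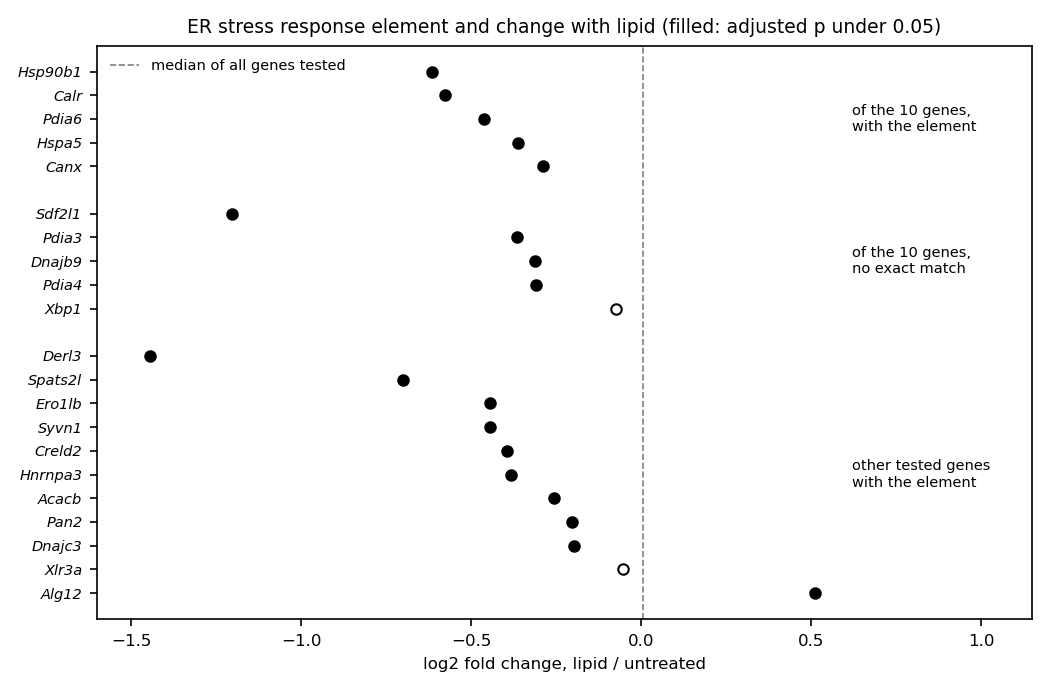
Log2 fold changes with lipid (horizontal axis, edgeR) for the 5 genes with an exact ER stress response element, the 5 without one, and the 11 other tested genes with one; filled points have an adjusted p under 0.05 and the dashed line is the median of all genes tested. Of the 16 genes with the element 14 are filled and below 0, and Alg12 at 0.51 is above.

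Across the 16 libraries, with the letter's mean removed, the genes outside the 10 whose log2 CPM correlated best with Hspa5 were Manf (r = 0.98), Rnh1 (0.97), Dap (0.97), Rab11b (0.97) and Calu (0.97). Among the 10 themselves r with Hspa5 was 0.98 for Hsp90b1, 0.97 for Calr, 0.96 for Pdia6 and 0.94 for Canx, Pdia3 and Sdf2l1, and lower for Dnajb9 (0.76), Xbp1 (0.73) and Pdia4 (0.71). These are descriptions without a test, since the libraries share treatments and normalization.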

How the data were processed

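Stranded libraries of poly(A) mRNA from primary mouse hepatocytes were sequenced, 4 in each of 4 treatment groups. Per the submitters' processing notes reads were handled with bcl2fastq 2.20, Cutadapt 1.18, STAR 2.7.0f, Picard 2.18.26 and RSEM 1.3.1 on mm10. The authors deposited RSEM's expected counts per gene, without normalization; a read that fits several genes is shared among them.

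Expected counts were rounded to whole numbers. A gene was kept if its CPM averaged 1 or more, which left 11675 of 55450. With TMM factors, edgeR 4.0.16 (R 4.3.3) fitted treatment and letter over all 16 libraries; its quasi-likelihood p-values were adjusted by Benjamini-Hochberg across the 11675 genes, with 0.05 as the threshold. The SE of a log2 fold change is its size over the root of the F statistic, and the 95% intervals follow from it. CPM used TMM library sizes, log2 CPM a prior count of 0.5, and levels per kb the merged exons of GENCODE M21. The letter was kept because libraries that share one deviated together from their group means (24 pairs, r of 0.144 to 0.469, median 0.263). For the 72 pairs of other letters r was −0.436 to 0.178 (median −0.114), so the ranges overlapped.

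The 10 genes, the 7 pathway lists and the marker lists were chosen from general knowledge, with earlier results of these data known. The text names the 10 genes, 16 preset sensors and targets, up to 2 called genes of largest change per list and comparison, and the 5 genes most like Hspa5. Sesn2, Derl2, Edem2, Fkbp11, Ero1lb, Alg12 and single markers were named after their values were seen. Promoter sequences are RefSeq's (GRCm38.p6); all 10 genes matched by symbol, and the motif search was added after the counts had been analysed. The fit was also run on counts simulated with known folds under the same kind of model. That run cannot check the choice of block or scaling, and its outcome is not given here. Alternatives were a model without the letter, RLE factors, library totals, no filter, filterByExpr, only the 8 libraries compared, DESeq2 1.42.0, limma-trend (limma 3.58.1) and each library left out in turn. Interval widths cover the spread between these libraries only.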

Additional observations from a re-analysis of the deposited data

Results flagged for a closer look

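Canx in the lipid-treated group had 1 library apart: D, at 492 CPM, against 437 to 445 CPM in the other 3, a gap of 0.851 of the group's range, beyond Dixon's 95% critical value for 4 samples. Among the 40 gene and group combinations checked, chance flags about 1 in 20.

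The itaconate effect on Canx was below 0 in all 4 letters without lipid and above 0 in all 4 with lipid. The difference of the effects was 0.098 on the log2 scale and did not pass the test of the interaction (adjusted p = 0.684, edgeR).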

How the results depend on the processing

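With lipid, 9 of the 10 genes were called under RLE factors, library totals, both filter settings, the 8 libraries alone, DESeq2, limma-trend and each left-out library, and 7 without the letter, where Hspa5 and Pdia4 were lost. Of 240 fold changes of the 10 genes recomputed for this comparison 237 kept direction and call. Leaving out the replicate block lowered other counts. For lipid in the presence of itaconate it left 2 of the 10 genes (from 8) and 33 of the 96 pathway genes (from 56), and with lipid alone 9 of 16 tested ERSE genes (from 15). It left 0 pathway genes and 23 of all genes for itaconate alone, 0 and 9 for itaconate with lipid, and 0 of all genes for the interaction. With library totals in place of TMM factors 1782 genes were lower and 3870 higher with lipid, against 2767 and 2779. The cause of these differences was not tested.

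For itaconate alone, no filter gave 3 of the 10 genes and 1091 of all genes, and the 8 libraries alone gave 5 of the 10, 19 pathway genes and 1859 of all genes (main counts 0, 6 and 573). For itaconate with lipid, no filter gave 1 of the 10 (Sdf2l1) and 725 of all genes, filterByExpr 1 pathway gene, DESeq2 512 of all genes, and the 8 libraries alone 1 pathway gene and 14 of all genes (main counts 0, 2 and 301). For the interaction, no filter gave 2 of the 10 genes (Pdia4 and Sdf2l1), 2 pathway genes and 231 of all genes, RLE factors and filterByExpr 2 of all genes, library totals 0 and DESeq2 36. Over left-out libraries, the counts for itaconate alone were 0 to 1 of the 10 genes, 2 to 13 pathway genes and 149 to 1051 of all genes; with lipid they were 0 to 1, 1 to 4 and 59 to 891, and for the interaction 0 to 1 of the 10 and 0 to 8 of all genes. Without lipid + itaconate library C the counts were highest (13 pathway genes and 1051 of all genes for itaconate alone, 4 and 891 with lipid); they were lowest over all genes without itaconate library C (149) and lipid + itaconate library A (59). The single call among the 10 was Pdia4, without lipid-treated library B.

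Signs changed only for values close to 0 that were not called. With library totals Xbp1 with lipid was 0.0065, and for itaconate with lipid Hsp90b1 was −0.015, Calr −0.015, Canx −0.014 and Pdia3 −0.0012. Pdia4, for lipid in the presence of itaconate, was −0.0011 under both RLE factors and DESeq2. Pdia6, for itaconate with lipid, was 0.00072 without the letter and 0.00047 in limma-trend. The interaction of Dnajb9 was −0.0039 with RLE factors, −0.028 with library totals, −0.0060 without a filter, −0.0028 with filterByExpr, −0.0041 in DESeq2 and −0.0059 in limma-trend. Over left-out libraries the ranges that crossed 0 were, with lipid, −0.024 to 0.16 for Ddit3 and −0.028 to 0.045 for Atf4; for lipid in the presence of itaconate −0.043 to 0.039 for Pdia4; for itaconate alone −0.013 to 0.088 for Dnajb9; for itaconate with lipid −0.046 to 0.017 for Hspa5, −0.064 to 0.058 for Pdia6, −0.038 to 0.16 for Dnajb9, −0.060 to 0.00025 for Xbp1, −0.022 to 0.11 for Hsp90b1, −0.026 to 0.091 for Calr and −0.0081 to 0.11 for Pdia3; and for the interaction −0.095 to 0.11 for Dnajb9 and −0.040 to 0.020 for Xbp1. The 10 genes had 279 to 80814 counts per library, and 4 libraries a group limit the precision.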
